A study of Homo sapiens with 7 samples.

Results

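Metallothionein genes and the gene of their transcription factor MTF1 were followed in the human ovarian carcinoma line SKOV3 after lentiviral knockdown of CtBP1 or CtBP2. The set holds 10 genes (MT1A, MT1E, MT1F, MT1G, MT1H, MT1M, MT1X, MT2A, MT3 and MTF1), of which 9 were measured among 17958 genes. A gene was taken as measured where GEO's platform annotation gives its symbol alone for a transcript cluster, the probe set that stands for a transcript on the array. No cluster was listed for MT1A. MT1E and MT1M each also appear in a cluster with several symbols, which was not used. MT2A had 3 clusters, and the brightest by its mean over the 7 arrays was taken. The family was selected on the deposited log2 signals of its member MT1G, which had already been seen among the leading genes of the CtBP2 knockdown, so the MT1G difference in that comparison is given as a description. The mean signal chose only the MT2A cluster.

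Metallothioneins are small, cysteine-rich proteins that hold zinc and copper ions and also bind cadmium and platinum. MT1 isoforms and MT2A are made in many tissues, MT3 mainly in brain and MT4 in stratified epithelium. MTF1 is a zinc-finger protein that senses free zinc and binds metal response elements upstream of metallothionein genes. In ovarian carcinoma the family has been studied for its binding of cisplatin. CtBP1 and CtBP2 are related co-repressors that recruit histone-modifying enzymes to DNA.

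Expression was read on 7 Affymetrix Human Gene 1.1 ST arrays, 1 per clone. There were 2 arrays of scramble control clones, 3 of clones labelled CtBP1 knockdown and 2 of CtBP2 knockdown clones. All 3 groups carried a stable lentivirus and were grown under puromycin, given in the labels as 2 mg/ml. The sources used here name no hairpin sequence and do not state that the clones were cultured separately. The p-values therefore rest on the spread between arrays, and that spread may be technical. Signals are on the log2 scale and ran from 0.60 to 12.54 over the whole table.

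Scramble control 1 stood apart from the other arrays. Its correlation with them over all genes was 0.926 to 0.941, against 0.971 to 0.993 among the other 6. Its signals were also less spread out, with an interquartile range over genes of 2.20, against 2.85 to 3.15 on the others. The median signal was alike, at 3.18 against 3.18 to 3.29. How far this narrower spread moved the differences from scramble was not tested. CTBP2 read 4.64 and 4.22 on the CtBP2 knockdown arrays and 5.70 and 6.14 on the controls. CTBP1 read 5.11, 6.13 and 6.13 on its 3 labelled arrays and 5.69 and 6.37 on the controls. These groups overlapped, so these 3 are called the CtBP1-labelled arrays, after their label. Of 12 carcinoma markers, KRT8 (8.35 to 9.35) and ERBB2 (8.52 to 9.58) were bright on every array. The median signal of this list ran from 5.57 to 7.35, lowest on scramble control 1. MSLN (3.55 to 5.37) and MUC16 (2.92 to 5.86) were dimmer than KRT8 and ERBB2. CDH1 (2.36 to 3.27) and WT1 (1.92 to 2.21) were dim. The leukocyte marker PTPRC was at 1.73 or below and the fibroblast marker DCN at 1.36 to 1.63. The fibroblast marker COL1A1 was the brightest of the fibroblast and endothelial list, at 2.70 to 3.32. Of the leukocyte list CD68, a lysosomal protein of macrophages, was bright at 5.90 to 7.11. The median signal of the marker lists ran from 1.77 to 2.08 for 9 measured leukocyte genes and from 1.88 to 2.13 for 10 fibroblast and endothelial genes, highest on scramble control 1 in both.

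The upstream DNA of metallothionein genes is shown because it carries many copies of the core motif that MTF1 binds. Of the 9 measured genes, 4 matched a RefSeq promoter window (build GRCh38.p14): MT2A, MT1X, MT1H and MTF1. The 250 bases before the start of transcription were searched on both strands for the core of the metal response element, written as TGCACNC and TGCGCNC, where N is any base. Matches are in capitals. A match on the opposite strand shows as its reverse complement.
MT2A, chr16:56608334-56608583, + strand: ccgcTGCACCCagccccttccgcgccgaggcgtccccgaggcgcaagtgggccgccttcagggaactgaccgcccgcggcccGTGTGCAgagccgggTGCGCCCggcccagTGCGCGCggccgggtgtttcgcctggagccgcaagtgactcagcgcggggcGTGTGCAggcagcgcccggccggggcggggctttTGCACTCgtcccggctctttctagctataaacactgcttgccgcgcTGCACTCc
MT1X, chr16:56682220-56682469, + strand: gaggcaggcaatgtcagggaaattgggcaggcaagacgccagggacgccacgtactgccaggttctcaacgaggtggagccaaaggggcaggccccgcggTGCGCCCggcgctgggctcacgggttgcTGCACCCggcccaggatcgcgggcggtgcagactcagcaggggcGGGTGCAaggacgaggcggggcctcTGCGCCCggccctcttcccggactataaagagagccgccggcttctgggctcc
MT1H, chr16:56669564-56669813, + strand: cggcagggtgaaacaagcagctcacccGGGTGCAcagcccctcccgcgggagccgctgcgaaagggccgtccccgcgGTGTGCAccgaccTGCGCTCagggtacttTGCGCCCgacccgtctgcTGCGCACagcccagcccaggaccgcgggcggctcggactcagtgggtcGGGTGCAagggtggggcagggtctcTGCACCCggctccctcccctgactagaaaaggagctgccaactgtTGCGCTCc
MT2A held 7 matches, MT1X 4 and MT1H 8, and none overlapped another. The 250 bases before MTF1 held 0. Over 35116 windows of the same length, 24.8% held at least 1 match, 0.37% at least 4, 0.0313% at least 7 and 0.0171% at least 8. Single-motif shares were 9.87% for TGCACNC and 16.8% for TGCGCNC. All 4 windows were rich in G and C, at 73.2% for MT2A, 70.0% for MT1X, 70.4% for MT1H and 70.0% for MTF1. The match nearest the start began 8 bases upstream in MT2A and in MT1H and 53 bases upstream in MT1X. In MT1X and MT1H a match began at 53 and at 78 bases upstream in both. The letters alone do not show that MTF1 is bound there.

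Between the arrays, metallothionein signals showed 3 patterns. MT1F was far higher on all arrays of both knockdowns than on the controls. MT1X, MT1G, MT1H and MT2A were highest on the CtBP2 knockdown arrays. MT1E and MT3 overlapped in all comparisons. No member passed the test in any comparison (limma, adjusted p under 0.05 over all genes), so the values below describe levels on these arrays.

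**Figure D1:**
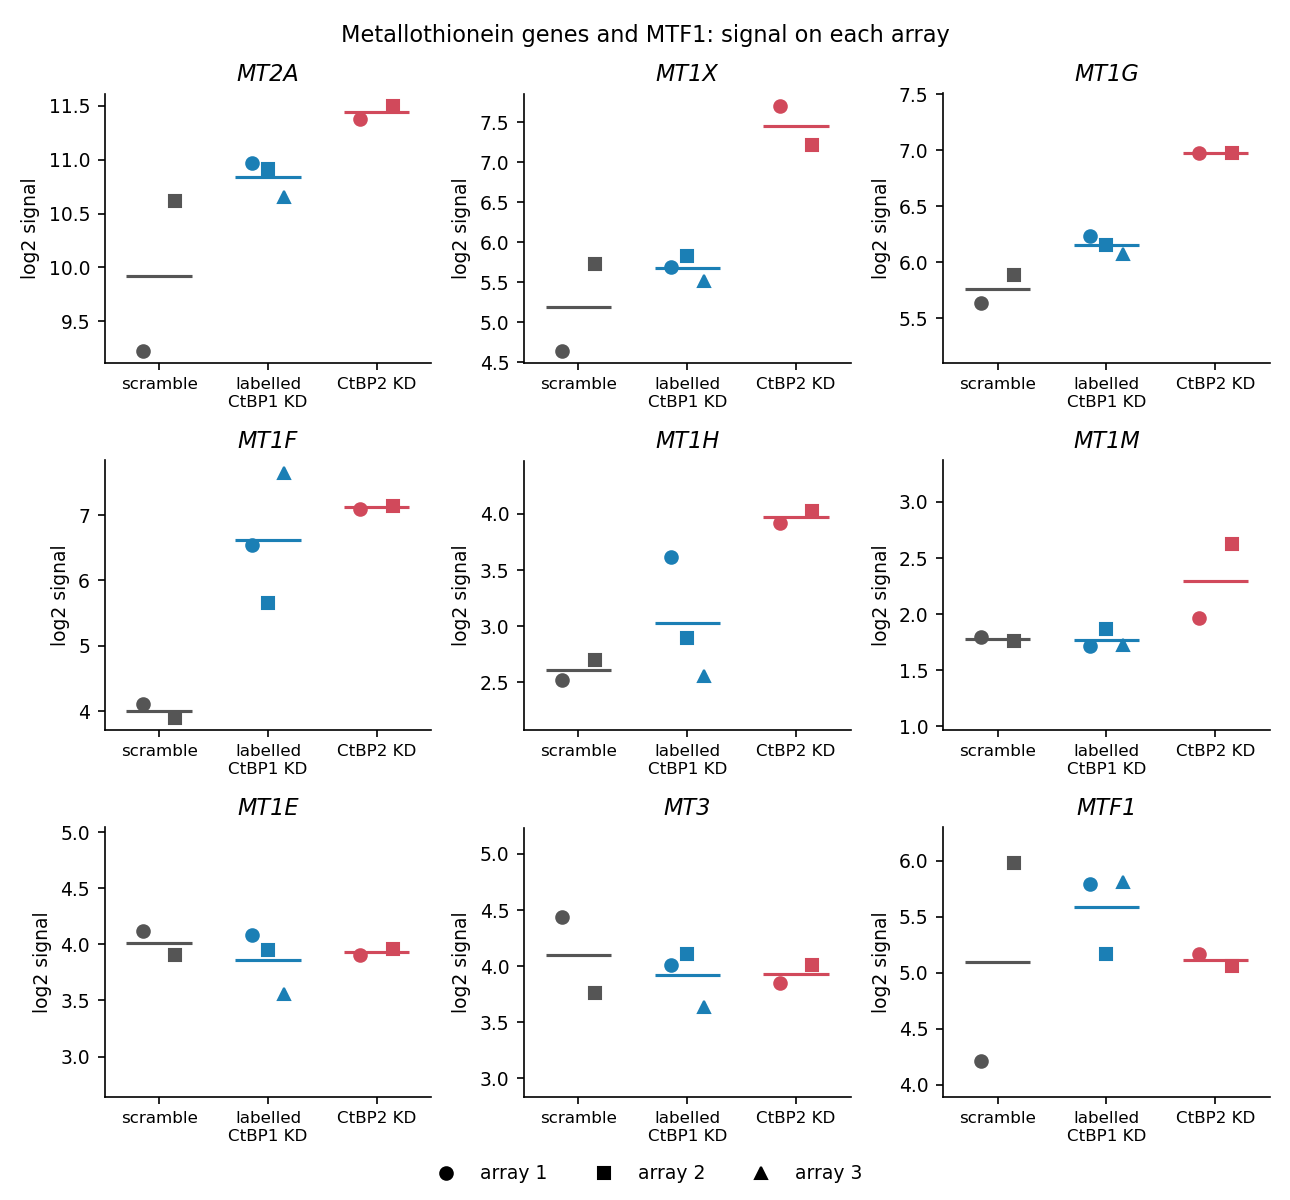
Log2 signal (vertical axis) of the 9 measured genes on each array, with groups on the horizontal axis, a point per array and a bar at each group mean; each panel has its own vertical range. MT1F lies at 3.90 to 4.11 in the scramble clones and at 5.65 to 7.65 on the other 5, while MT1E overlaps between all groups.

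MT1F encodes a broadly expressed MT1 isoform. Its log2 signals were 4.11 and 3.90 in the scramble clones, 6.55, 5.65 and 7.65 on the CtBP1-labelled arrays, and 7.10 and 7.14 on the CtBP2 knockdown arrays. Every knockdown array lay above both controls, which were close to each other, and CtBP1-labelled array 3 was the highest of all. The CtBP1-labelled arrays exceeded scramble by a log2 difference of 2.61 ± 0.54 (SE from limma, 3 arrays against 2), or 6.10-fold. That was the 4th largest positive difference of all genes in the comparison, with an adjusted p of 0.734. For the CtBP2 knockdown it was 3.12 ± 0.59, or 8.67-fold, ranked 9 by size, with an adjusted p of 0.245. The knockdowns differed from each other by 0.51, with a 95% interval of -0.81 to 1.83 (limma, adjusted p = 0.968), and by 0.02 and 1.02 without CtBP1-labelled arrays 2 and 3. The spread among the CtBP1-labelled arrays was wide (SD 1.00, n = 3). With any single array left out, the difference from scramble lay between 2.09 and 3.09 for the CtBP1-labelled arrays and between 3.01 and 3.22 for the CtBP2 knockdown.

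MT1X, another MT1 isoform, had signals of 4.65 and 5.73 in the scramble clones, 5.69, 5.83 and 5.51 on the CtBP1-labelled arrays, and 7.71 and 7.21 on the CtBP2 knockdown arrays. The CtBP2 knockdown arrays lay above all the others, and the CtBP1-labelled arrays lay around scramble control 2. The CtBP2 knockdown differed from scramble by 2.27 ± 0.37 (SE), or 4.82-fold, at an adjusted p of 0.223 (limma), and from the CtBP1-labelled arrays by 1.78 ± 0.34, or 3.44-fold, at an adjusted p of 0.266. The difference of the CtBP1-labelled arrays from scramble was 0.49 ± 0.34, which became -0.06 against scramble control 2 alone and 1.03 against scramble control 1 alone. The difference of the CtBP2 knockdown was 1.72 with scramble control 1 left out and 2.81 with scramble control 2 left out.

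MT1G, an MT1 isoform often examined in tumours, had signals of 5.64 and 5.89 in the scramble clones, 6.23, 6.16 and 6.08 on the CtBP1-labelled arrays, and 6.97 and 6.97 on the CtBP2 knockdown arrays. The 3 groups formed steps with no overlap, and the spread within each was small (SD 0.18, 0.08 and 0.0022). The difference of the CtBP2 knockdown from scramble was 1.21 ± 0.14 (SE), or 2.31-fold. The CtBP1-labelled arrays differed from scramble by 0.40 ± 0.12 at an adjusted p of 0.734 (limma), and the CtBP2 knockdown from these arrays by 0.82 ± 0.12 at an adjusted p of 0.202. Without scramble control 1 the difference of the CtBP1-labelled arrays was 0.27.

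MT2A, the main MT2 protein in human cells, had signals of 9.23 and 10.62 in the scramble clones, 10.97, 10.91 and 10.65 on the CtBP1-labelled arrays, and 11.38 and 11.50 on the CtBP2 knockdown arrays. The groups did not overlap, but CtBP1-labelled array 3 was only just above scramble control 2. The controls themselves differed by -1.39 (scramble control 1 minus 2). The CtBP2 knockdown differed from scramble by 1.52 ± 0.43 (SE), or 2.87-fold, with an adjusted p of 0.382 (limma). It came to 0.82 against scramble control 2 alone and to 2.21 against scramble control 1 alone. For the CtBP1-labelled arrays it was 0.92 ± 0.39, with an adjusted p of 0.734, and it went to 0.23 and 1.62 without scramble control 1 and 2. The knockdowns differed by 0.60 (95% interval -0.36 to 1.55, from a spread that includes the controls).

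**Figure D2:**
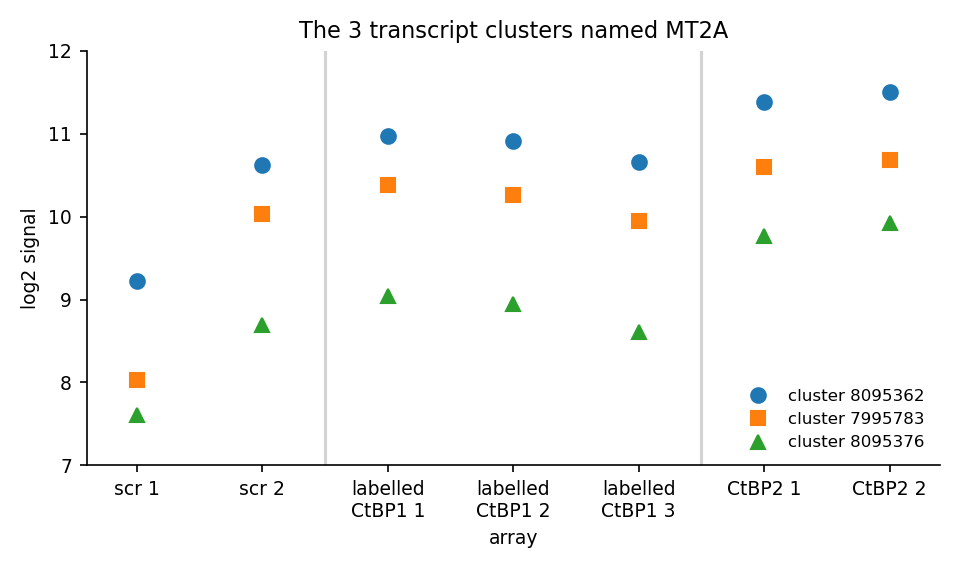
Log2 signal (vertical axis) on each of the 7 arrays (horizontal axis) of the 3 transcript clusters that the annotation names MT2A, with a marker shape per cluster and grey lines between groups. In each cluster scramble control 1 is the lowest array and both CtBP2 knockdown arrays are the highest.

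The other MT2A clusters gave the same order of group means. For clusters 7995783 and 8095376 the CtBP2 knockdown differed from scramble by 1.61 and 1.69, and the CtBP1-labelled arrays by 1.16 and 0.71. Against scramble control 2 alone, the CtBP2 knockdown was higher by 0.82, 0.61 and 1.15 in clusters 8095362, 7995783 and 8095376. In clusters 7995783 and 8095376, CtBP1-labelled array 3 (9.95 and 8.61) lay below scramble control 2 (10.03 and 8.69).

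MT1H, an MT1 isoform encoded next to MT1G, had signals of 2.52 and 2.70 in the scramble clones, 3.62, 2.90 and 2.56 on the CtBP1-labelled arrays, and 3.92 and 4.03 on the CtBP2 knockdown arrays. The CtBP2 knockdown arrays were above all the others, and 1 CtBP1-labelled array lay between the controls. The CtBP2 knockdown differed from scramble by 1.37 ± 0.34 (SE), or 2.58-fold, at an adjusted p of 0.348 (limma), and from the CtBP1-labelled arrays by 0.95 ± 0.31 at an adjusted p of 0.511. The difference of the CtBP1-labelled arrays from scramble was 0.42 ± 0.31, 0.12 without their array 1 and 0.65 without their array 3.

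MT1M, a further MT1 isoform, was dim on every array. Its signals were 1.80 and 1.76 in the scramble clones, 1.71, 1.87 and 1.73 on the CtBP1-labelled arrays, and 1.96 and 2.63 on the CtBP2 knockdown arrays. The CtBP2 knockdown was higher than scramble by 0.52 ± 0.23 (SE) at an adjusted p of 0.502 (limma), and this came largely from its array 2, without which it was 0.18.

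MT1E and MT3 were not separated between any groups. MT1E had signals of 4.12 and 3.91 in the scramble clones, 4.08, 3.95 and 3.56 on the CtBP1-labelled arrays, and 3.91 and 3.96 on the CtBP2 knockdown arrays. Its CtBP2 difference from scramble was -0.08, with a 95% interval of -0.57 to 0.41. MT3, the form best known from brain, ran from 3.64 to 4.43, with scramble control 1 the highest. Its CtBP2 difference from scramble was -0.17 (95% interval -0.82 to 0.49), which turned to 0.17 without scramble control 1.

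MTF1, the transcription factor itself, had signals of 4.21 and 5.98 in the scramble clones, 5.79, 5.16 and 5.81 on the CtBP1-labelled arrays, and 5.16 and 5.06 on the CtBP2 knockdown arrays. The controls were the lowest and the highest arrays, with all knockdown arrays between them. The CtBP2 difference from scramble was 0.02 ± 0.56 (SE), which became -0.87 against scramble control 2 alone and 0.90 against scramble control 1 alone. The CtBP2 knockdown arrays were lower than the CtBP1-labelled arrays, with a log2 difference of -0.48 (95% interval -1.73 to 0.78, from a spread that includes the controls). In that comparison MTF1 was the 1 member with a negative value.

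**Figure D3:**
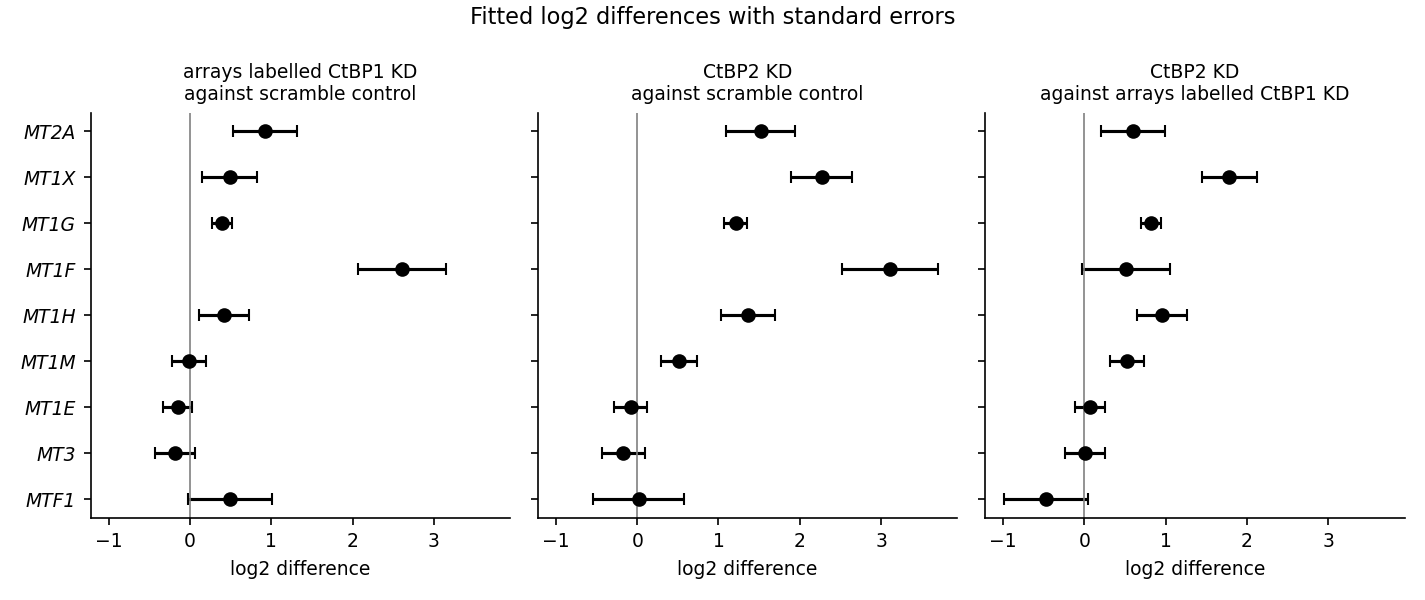
Fitted log2 difference (horizontal axis) of each gene (vertical axis) in the 3 comparisons, with points at the estimate and bars of 1 standard error on each side. MT1F stands at 2.61 and 3.12 against scramble, and MT1X at 2.27 in the CtBP2 knockdown and 0.49 on the CtBP1-labelled arrays.

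Counted over the set, the CtBP2 knockdown arrays lay above both controls for 6 of the 9 genes (MT1F, MT1G, MT1H, MT1M, MT1X and MT2A) and below both for 0. Over all genes 19.3% were higher and 21.7% lower without overlap in this comparison. A log2 difference of at least 1 was seen for 5 of the 9, against 4.22% of all genes, and an unadjusted p under 0.05 with a higher signal for 5, against 7.19%, and with a lower signal for 0, against 2.98%. The median difference was 1.21, against -0.02 for all genes. Limma called 0 members at an adjusted p under 0.05 and 1 of all genes (0.00557%). Without scramble control 1, which leaves 1 control array, 7 of the 9 lay higher than it without overlap, against 32.1% of all genes. MTF1 alone lay lower, against 41.8% of all genes. In that setting 4 of the 9 exceeded the control by at least 1, against 1.69%, and the median was 0.82. Since this comparison brought the family forward, its counts are a description.

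For the CtBP1-labelled arrays, 3 of the 9 genes (MT1F, MT1G and MT2A) were higher than both controls without overlap and 0 lower, against 6.76% and 7.59% of all genes. MT2A was so only in the brightest of its 3 clusters. In its other clusters CtBP1-labelled array 3 lay below scramble control 2. The median difference of the 9 genes was 0.42, against 0.00 for all genes, and 0.16 without scramble control 1. In that setting again 3 of the 9 were higher without overlap, against 19.4% of all genes, and MTF1 alone was lower, against 24.7%. A log2 difference of at least 1 was seen for MT1F alone, against 1.88% of all genes. Limma called 0 members and 0 of all genes, and 2 members, MT1F and MT1G, had an unadjusted p under 0.05 with a higher signal and 0 with a lower one, against 2.87% and 1.92% of all genes. With scramble control 1 left out, the log2 differences of MT1F and MT1G were 2.71 and 0.27. This comparison and the CtBP2 comparison share their controls.

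Between the knockdowns, which does not involve the controls' means, 5 of the 9 genes (MT1G, MT1H, MT1M, MT1X and MT2A) were higher on both CtBP2 knockdown arrays than on all CtBP1-labelled arrays, against 15.8% of all genes, and 0 lower, against 16.2%. The median difference was 0.53, against -0.01 for all genes. Limma called 0 members and 0 of all genes, and 4 members (MT1G, MT1H, MT1M and MT1X) had an unadjusted p under 0.05 with a higher signal and 0 with a lower one, against 5.31% and 2.46% of all genes. MT1X alone differed by at least 1, against 1.36%. Its standard errors, intervals and p-values still rest on a spread pooled over all 3 groups, the controls included. For MT2A the SD was 0.98 in the scramble clones, 0.17 on the CtBP1-labelled arrays and 0.08 on the CtBP2 knockdown arrays. For MTF1 these were 1.25, 0.37 and 0.07. This comparison shares the CtBP2 knockdown arrays with the CtBP2 comparison against scramble, so its counts, which include MT1G, are a description too.

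The metallothionein genes lie side by side on chromosome 16, while MTF1 is on chromosome 1. In the RefSeq order of GRCh38.p14 the measured genes run MT4, MT3, MT2A, MT1L, MT1E, MT1M, MT1DP, MT1B, MT1F, MT1G, MT1H, MT1IP and MT1X. MT1L, MT1DP and MT1IP are transcribed pseudogenes. Genes with differences near 0 and genes with large ones were interspersed along this order. MT1E and MT1M, next to each other, differed by -0.08 and 0.52 in the CtBP2 knockdown, and MT1IP, between MT1H and MT1X, had signals of 4.48 and 4.19 in the scramble clones and 4.23 and 4.30 on the CtBP2 knockdown arrays.

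**Figure D4:**
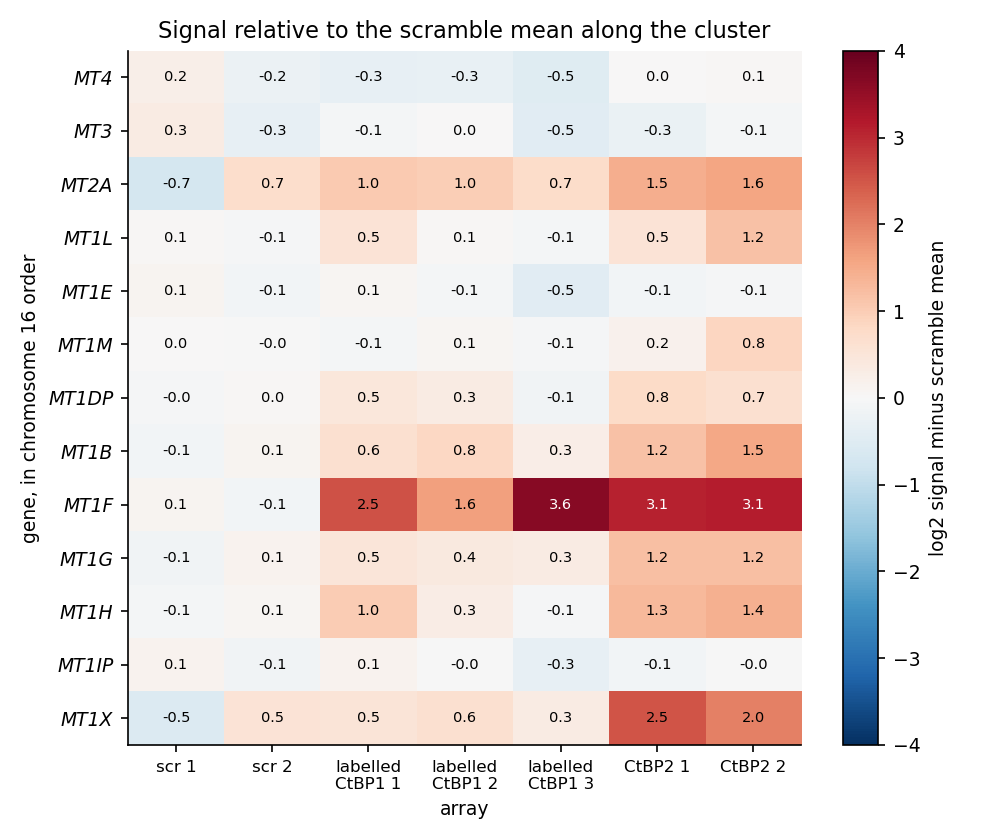
Log2 signal minus the scramble mean (colour and printed value) for 13 metallothionein genes and pseudogenes in their order along chromosome 16 (vertical axis) on each array (horizontal axis). MT1F is the strongest row, from 1.64 to 3.64 on the 5 knockdown arrays, and MT1X reaches 2.52 and 2.02 on the CtBP2 knockdown arrays.

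Of 8 relatives outside the set, 6 were measured. MT1B, a neighbour of MT1F, had signals of 3.05 and 3.30 in the scramble clones, 3.82, 4.02 and 3.43 on the CtBP1-labelled arrays, and 4.36 and 4.72 on the CtBP2 knockdown arrays. Its groups formed 3 steps with no overlap. The CtBP2 difference from scramble was 1.36 ± 0.24 (SE) at an adjusted p of 0.239 (limma). The pseudogenes MT1DP and MT1L differed by 0.70 ± 0.21 and 0.86 ± 0.29 in the same comparison. MT1HL1, a gene on chromosome 1 that resembles MT1H, was higher in the CtBP2 knockdown than on the CtBP1-labelled arrays by 0.62 ± 0.17. In all, 4 of the 6 relatives were higher on both CtBP2 knockdown arrays than in both scramble clones, against 19.3% of all genes, as were all 6 against scramble control 2 alone, against 32.1%. None passed the test. MT1 genes are nearly identical in sequence, so probes of 1 cluster may take up RNA of another, and each value is uncertain to that extent. The part of such shared signal in these differences was not tested.

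No zinc transporter was called: none of the 11 exporters and vesicle transporters or the 14 importers passed the test in any comparison (limma, adjusted p under 0.05). At an unadjusted p under 0.05 in the CtBP2 knockdown there was 1 higher gene of each kind and 0 lower, where 7.19% of all genes were higher and 2.98% lower. With scramble control 1 left out, no gene of either kind was higher at such a p, against 5.07% of all genes, and 2 importers were lower, against 5.3%: SLC39A1, with a log2 difference of -0.63, and SLC39A10, with -0.61. In that setting 3 of the 14 importers were higher and 8 lower without overlap, against 32.1% and 41.8% of all genes. SLC30A1, the zinc exporter of the plasma membrane and a known MTF1 target, had signals of 4.77 and 3.98 in the scramble clones, 4.17, 3.51 and 4.37 on the CtBP1-labelled arrays, and 4.68 and 4.70 on the CtBP2 knockdown arrays. On both CtBP2 knockdown arrays it lay between the controls and above the 3 CtBP1-labelled arrays without overlap. The CtBP2 difference was 0.32 ± 0.36 (SE) from scramble, 0.71 from scramble control 2 alone, and 0.68 ± 0.33 from the CtBP1-labelled arrays (limma, adjusted p = 0.758). SLC30A5, which moves zinc into the secretory pathway, differed by 0.96 ± 0.33 (SE) in the CtBP2 knockdown and by 0.54 without scramble control 1. Of the importers SLC39A13 differed from scramble by 0.72 ± 0.29 in the CtBP2 knockdown and 0.89 ± 0.26 on the CtBP1-labelled arrays, and by 0.42 and 0.60 without scramble control 1. The median difference in the CtBP2 knockdown was 0.04 for exporters and 0.11 for importers.

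Among 15 genes of copper handling none passed, and 3 had an unadjusted p under 0.05 with a higher signal in the CtBP2 knockdown and 0 with a lower one, against 7.19% and 2.98% of all genes. Without scramble control 1, 3 were higher and 2 lower at such a p, against 5.07% and 5.3%. SOD1, the copper and zinc superoxide dismutase, had signals of 5.90 and 6.46 in the scramble clones, 6.46, 6.59 and 6.30 on the CtBP1-labelled arrays, and 7.25 and 7.46 on the CtBP2 knockdown arrays. The CtBP2 knockdown arrays were highest, as for MT1X. The difference from scramble was 1.18 ± 0.22 (SE) at an adjusted p of 0.245 (limma). ATOX1, a chaperone that hands copper to export pumps, differed by 1.45 ± 0.53 and COX17, which serves cytochrome oxidase, by 1.16 ± 0.45. The CtBP1-labelled arrays were also above scramble for both genes, by 1.23 ± 0.48 and 0.90 ± 0.41. Scramble control 1 was the lowest array for both. Without it the differences were 0.58 and 0.79 in the CtBP2 knockdown and 0.36 and 0.53 on the CtBP1-labelled arrays. ATP7A, a copper export pump, read 3.11 and 3.44 in the CtBP2 knockdown and 3.75 or more on the other 5 arrays, with log2 differences of -0.80 ± 0.35 from scramble and -0.89 ± 0.32 from the CtBP1-labelled arrays (limma, adjusted p = 0.5 and 0.556). SLC31A1, the copper importer CTR1, differed by -0.59 from scramble and by -1.18 without scramble control 1. ATP7A and SLC31A1, like CD68, COL1A1, SLC39A1 and SLC39A10 above, were named after their values were seen.

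Lists of stress responses that also induce metallothioneins were set beside them. Of 16 measured NRF2 genes, which answer oxidative stress, 5 were higher on both CtBP2 knockdown arrays than in both scramble clones and 0 lower, against 19.3% and 21.7% of all genes. Against scramble control 2 alone, 5 were higher and 6 lower, against 32.1% and 41.8%. On the CtBP1-labelled arrays 0 were higher and 2 lower than both controls, against 6.76% and 7.59% of all genes. On the same arrays 0 were higher and 10 lower than scramble control 2, against 19.4% and 24.7%. TXN, which encodes thioredoxin, had signals of 4.63 and 5.75 in the scramble clones, 5.36, 5.35 and 5.44 on the CtBP1-labelled arrays, and 7.28 and 7.69 on the CtBP2 knockdown arrays. It differed from scramble by 2.30 ± 0.36 (SE) at an adjusted p of 0.211 (limma), and by 1.74 without scramble control 1. TXNRD1, the reductase of thioredoxin, differed by 0.76 ± 0.27, and by 0.48 without scramble control 1. NQO1, of the same list, went the other way in the CtBP2 knockdown, by -0.13, and by -0.50 without scramble control 1. The median difference of the 16 genes in this knockdown was 0.23, and 0.06 without scramble control 1. HMOX1, heme oxygenase, was lower than scramble on the CtBP1-labelled arrays (log2 difference -0.48), with signals of 4.15, 4.65 and 4.10 against 4.79 and 4.78.

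Of 12 measured heat shock factor genes, 8 were higher on both CtBP2 knockdown arrays than in both scramble clones and 0 lower, against 19.3% and 21.7% of all genes, with a median difference of 0.74. Scramble control 1 was low for this list, at a median signal of 5.52 against 7.11 on scramble control 2, and without it the median difference was 0.13, with 8 higher and 2 lower, against 32.1% and 41.8% of all genes. HSPE1, a mitochondrial chaperonin, differed from scramble by 2.21 ± 0.41 (SE), and by 1.61 without scramble control 1, the largest of the list in that setting. HSPD1 of the same list, named after its values were seen, differed by 0.09, and by -0.35 without scramble control 1. Of 10 measured glucocorticoid response genes, 3 were higher and 3 lower without overlap, against 19.3% and 21.7% of all genes, or 4 and 5 against scramble control 2 alone, where 32.1% and 41.8% of all genes were. ANGPTL4, a secreted inhibitor of lipoprotein lipase, differed by 2.34 ± 0.41 and TSC22D3, which encodes GILZ, by -0.67 ± 0.25. No gene of these lists passed the test.

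**Figure D5:**
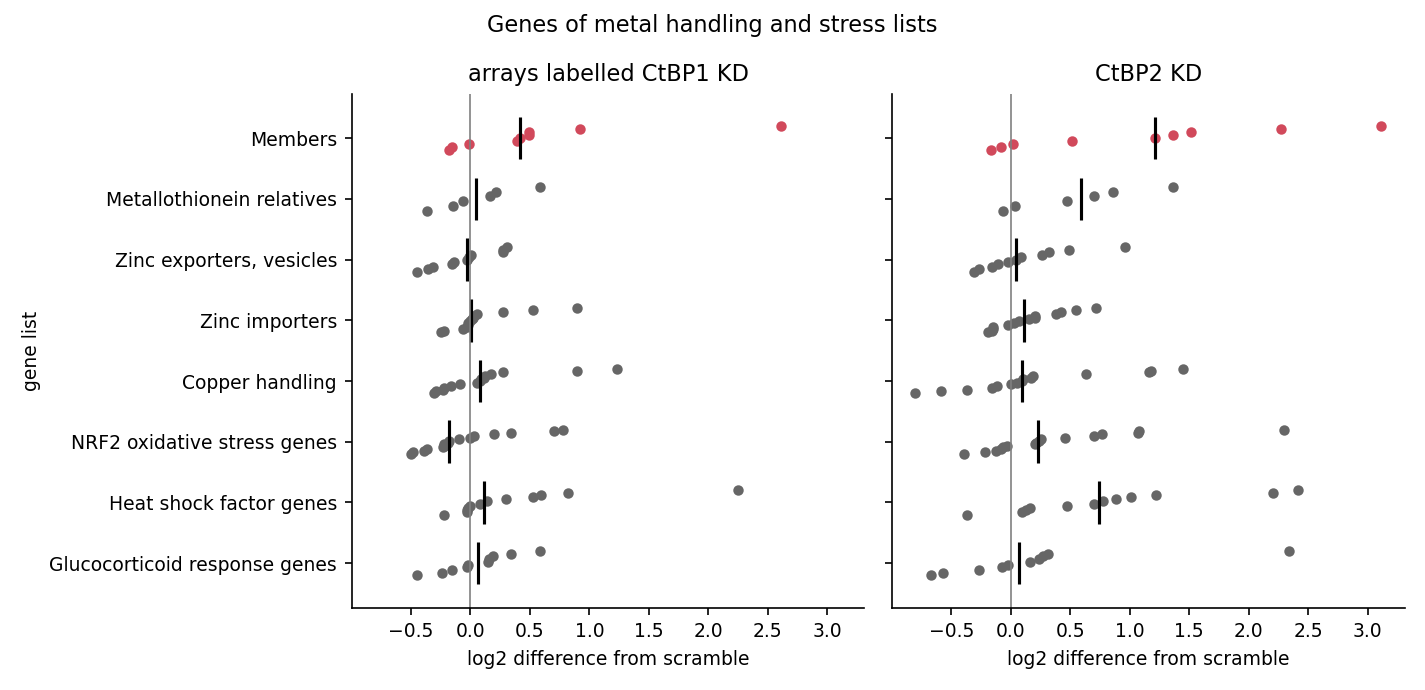
Log2 difference from scramble (horizontal axis) of each measured gene in the metallothionein set, its relatives and the metal and stress lists (vertical axis), with black ticks at list medians, for the CtBP1-labelled arrays (left) and the CtBP2 knockdown (right). The metallothionein set has a median of 1.21 at right, and the zinc transporter lists have medians of 0.04 and 0.11.

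Likeness over the 7 arrays was ranked among 5601 genes that varied by at least 1 log2 unit. The members were left out, as were symbols that begin with LOC, LINC, MIR or SNOR or hold orf. Of the members left out, MT1X and MT1H had a Pearson r of 0.966 and 0.914 with MT1G, and the others 0.855 or less. The ranked genes whose signals most resembled MT1G were MOK (Pearson r = 0.993), SFT2D1 (0.986), TBC1D1 (0.985), FAM162A (0.982) and RNU4-1 (0.980). Spearman's rho for them ran from 0.857 to 0.955. RNU4-1 differed from scramble by 3.85 in the CtBP2 knockdown and the other 4 by 0.89 to 1.21. For MT2A they were TPM1 (0.990), ACOT9 (0.990), INPP5F (0.988), ATP2C1 (0.988) and NRIP3 (0.987), and without scramble control 1 these values lay between 0.938 and 0.964. Of the 5601 ranked genes, 155 had an r above 0.9 with MT1G and 455 with MT2A. These genes were picked for the highest r over 7 arrays of 3 groups, so the values describe likeness on these arrays and carry no test.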

How the data were processed

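RNA of 7 SKOV3 clones was measured on Affymetrix Human Gene 1.1 ST arrays. The authors deposited log2 signals, 1 per transcript cluster and array. The submitters' processing notes name Affymetrix Expression Console and RMA, which corrects background, equalises arrays and summarises probes. In the deposited signals scramble control 1 still had a narrower spread over genes than the other arrays. The array's genome build is not given in the sources used here. Groups and replicate numbers came from the titles. Of 33297 clusters, 19181 had exactly 1 symbol, 2055 several and 12061 were not listed. Symbols were updated through Entrez identifiers for 17930 genes, and 28 kept theirs. Where a gene had several clusters the brightest was used, and no dim gene was removed. Precision rests on the number of arrays.

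A model of 3 group means was fitted to all 17958 genes with limma 3.58.1 (lmFit, eBayes) in R 4.3.3, and two-sided p-values were adjusted by Benjamini-Hochberg within each comparison. On simulated data the fit recovered 88% to 94% of 100 genes changed by 1 log2 unit. On these arrays the fit called at most 1 of all genes in a comparison. The simulated share therefore does not tell how many changes were missed here. Values after ± are standard errors from this fit. Members, gene lists and tests were chosen with earlier results of these data known. Besides the members, up to 3 genes with the smallest p of each of 10 lists could be named per comparison. The 5 genes most like MT1G and the 5 most like MT2A were named too. Of all genes, 7180 (40.0%) shared a value between at least 2 arrays, 3 members (MT1E, MT3 and MTF1) among them. Alternatives were other cluster rules, renewed quantile normalization, median centring, a minimum mean signal of 4, trended and robust eBayes, only the groups compared, array weights, a block for the replicate number, and omission of each array in turn. Counts without scramble control 1 were added after seeing the data. A control left alone in its group is taken to vary as much as the other groups do. Figures were drawn with matplotlib 3.10.9.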

Additional observations from a re-analysis of the deposited data

How the results depend on the processing

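With arrays left out in turn, the number of members called by limma ran from 0 to 4 for the CtBP1-labelled arrays and from 0 to 3 for the CtBP2 knockdown against scramble. The calls arose only without scramble control 2, which leaves scramble control 1 alone, for MT1G, MT1X, MT2A and MTF1 in the first comparison and MT1G, MT1X and MT2A in the second. In that setting 3262 and 3952 of all genes were called. Array weights called 2 members, MT1G and MT1X, between the knockdowns, and 272 genes in all. The family was selected on MT1G, so each call of MT1G that uses the CtBP2 knockdown arrays is a description and no test. The median difference of the members lay between 0.16 and 0.52 for the CtBP1-labelled arrays and between 0.82 and 1.34 for the CtBP2 knockdown when an array was left out. For the latter it was 1.00 after renewed quantile normalization and 1.52 over the 5 members with a mean signal of at least 4. The count of all genes called for the CtBP2 knockdown was 0 after renewed quantile normalization, median centring, array weights, the replicate block or only the groups compared, and 3 with the minimum mean signal. Median centring moved the median of all genes in that comparison to 0.127. The cause of these moves was not tested.

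Signs turned only for values near 0 or values tied to a control. With an array left out, the difference of the CtBP1-labelled arrays from scramble ran from -0.06 to 0.02 for MT1M, -0.06 to 1.03 for MT1X, -0.52 to 0.16 for MT3 and -0.39 to 1.38 for MTF1. For the CtBP2 knockdown it ran from -0.19 to 0.03 for MT1E, -0.51 to 0.17 for MT3 and -0.87 to 0.90 for MTF1, and between the knockdowns from -0.08 to 0.18 for MT1E and -0.13 to 0.11 for MT3. MT1M on the CtBP1-labelled arrays was at 0.06 after renewed quantile normalization and 0.08 after median centring. MT1E in the CtBP2 knockdown was at 0.07 after median centring, and MTF1 at -0.14 after renewed quantile normalization, which also put MT3 between the knockdowns at -0.02. With the replicate block, MT1M was at 0.01 on the CtBP1-labelled arrays, and between the knockdowns MT1E was at -0.08 and MT3 at -0.13. Deviations of same-numbered arrays correlated at -0.354 to 0.098. In a group of 2 arrays the deviations are mirror images, so the scramble and CtBP2 pairs gave -0.028 for both numbers. With so few arrays this check cannot show whether same-numbered arrays were paired. The block called 0 members.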

Other observations

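Several values in the table are shared between arrays of different groups. MT1E was identical on scramble control 2 and CtBP2 knockdown array 1 (3.91), MT3 on CtBP1-labelled array 1 and CtBP2 knockdown array 2 (4.01), and MTF1 on CtBP1-labelled array 2 and CtBP2 knockdown array 1 (5.16). The heat shock gene BAG3 had 5.48 on scramble control 2 and on all 3 CtBP1-labelled arrays.

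Both clusters that the annotation shares between several metallothionein symbols were dim. The cluster of MT1M and MT1JP ran from 2.61 to 3.07 over the 7 arrays, and the cluster of MT1P3, MT1JP and MT1E from 2.73 to 3.53. Keratin 7, an epithelial keratin on the carcinoma marker list, had signals of 5.65 and 7.59 in the scramble clones, 7.82, 6.59 and 6.72 on the CtBP1-labelled arrays, and 9.65 and 8.67 on the CtBP2 knockdown arrays, with a CtBP2 difference from scramble of 2.54 ± 0.75 (SE of the limma fit), or 1.57 without scramble control 1.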
